A study of Mus musculus with 4 samples.

Results

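The receptor tyrosine kinases through which melanocytes receive growth signals, and a pair of their ligands, were described in 4 mouse melanocyte lines. The set holds 10 genes chosen by name, namely the receptors Kit, Met, Fgfr1, Igf1r, Erbb3, Pdgfra, Pdgfrb and Axl and the ligands Kitl and Hgf, out of 18193 genes on the array. These genes were measured by 28 probe sets listed with 1 gene each, out of 45037 probe sets. Line 10d is bcat*, that is, it carries a stable and transcriptionally active form of β-catenin made in the melanocyte lineage, and line 9v is wild-type (WT). Both were labelled male. Lines 13d and 14d were labelled female, and the labels give 13d as bcat* and 14d as WT, while the article's Methods give 13d as WT and 14d as bcat*. Their genotype is thus unsettled, and they are reported by line name. The Methods also describe the mice of origin as male, unlike the labels of lines 13d and 14d. All 4 lines were established from the skin of C57BL/6J pups aged 3 days, are immortalized, and were grown to 80% confluency in Ham's F12 with 10% FBS and 200 nM TPA, a phorbol ester that sustains melanocytes in culture. RNA integrity numbers were between 9.7 and 9.9. Each line was measured on 1 Affymetrix array, which leaves every difference without replication, and none was tested.

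A receptor tyrosine kinase binds a secreted or membrane-bound ligand outside the cell, pairs with another receptor molecule, and phosphorylates tyrosines on its own tail. Adaptor proteins dock there and pass the signal to the Ras/MAPK and PI3K pathways. In the melanocyte lineage, Kit and its ligand are needed for the migration and survival of melanoblasts, and loss of either gives white spotting in mice. Hepatocyte growth factor, fibroblast growth factors and insulin-like growth factors are also growth factors for melanocytes, and their main sources in skin are fibroblasts and keratinocytes.

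The authors deposited 1 intensity per probe set, on a linear scale in whole numbers from 2 to 84904. An intensity of 32 (a log2 value of 5) was taken as the detection level, and a gene was represented by its brightest probe set. Intensities of different probe sets cannot be compared with each other, so each gene is compared between lines only. The melanocyte identity of the lines was visible in 9 of 10 marker genes, Mitf, Sox10, Pmel, Tyr and Dct among them, which were detected in all lines with a median range between lines of 1.22-fold. The remaining marker, Ednrb, was under the detection level in all lines by its brightest probe set. The labelled sexes matched the arrays, since the brightest Xist probe set read 4 in lines 10d and 9v, 2124 in line 13d and 1768 in line 14d. The share of probe sets at or above the detection level lay between 35.8% and 36.1% in the 4 lines.

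Of the 10 genes, 6 were detected in at least 1 line, and 4 of these (Kit, Met, Igf1r and Erbb3) in all lines, while over all genes 51.8% were detected in at least 1 line and 45.8% in all lines. The receptors of stem cell factor, hepatocyte growth factor, insulin-like growth factor and neuregulin were thus the ones measurable in every line. Axl was detected in lines 13d and 14d, and Kitl in line 10d. Fgfr1, Pdgfra, Pdgfrb and Hgf stayed under the detection level in all lines and in all of their probe sets. Of the 28 probe sets, 19 were under the detection level in all lines, and 14 of these had the same intensity on all 4 arrays. This was also so for 74.9% of all dim probe sets, so that an equal low value is no measured level.

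No member differed by at least 2-fold between bcat* (10d) and WT (9v) melanocytes by its brightest probe set, where 17.3% of the 9415 detected genes did. The median log2 difference of the 6 detected members, bcat* minus WT, was -0.21, against 0 over all detected genes. Values raised to the detection level enter this median. Axl, under that level in both lines, counted as 0, and Kitl, under it in WT (9v) cells, counted as 0.25. Kit, Met and Igf1r had lower intensities in line 10d than in line 9v, and the size of the differences was between 1.33-fold and 1.95-fold. Erbb3 had nearly equal intensities in both lines.

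Kit, the receptor of stem cell factor, had 2 probe sets, and both were detected in all lines. The brightest had an intensity of 4018 in bcat* (10d) cells and 5350 in WT (9v) cells, beside 6538 in line 13d and 7328 in line 14d. The other had 752 in bcat* (10d) cells and 1172 in WT (9v) cells, beside 1225 in line 13d and 1419 in line 14d. Both probe sets thus gave the same order of the lines, with line 10d lowest and line 14d highest. The ratio of bcat* to WT cells was 0.751 for the brightest (a log2 difference of -0.41) and 0.642 for the other. Line 10d was also the lowest when set against lines 13d and 14d, with ratios of 0.615 and 0.548 by the brightest probe set. Mast cells are the other skin cells known for high Kit, and none of 8 mast cell markers was detected in any line, with a summed intensity of 46 in each.

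Met, the receptor of hepatocyte growth factor, was detected by both of its probe sets in all lines. The brightest had an intensity of 16218 in bcat* (10d) cells and 29821 in WT (9v) cells, beside 22683 in line 13d and 20607 in line 14d. The other had 2614 in bcat* (10d) cells and 5647 in WT (9v) cells, beside 3947 in line 13d and 3284 in line 14d. Line 10d was again lowest, and line 9v highest, in both. The ratio of bcat* to WT cells was 0.544 by the brightest probe set, a log2 difference of -0.88, which falls short of 2-fold. By the other it was 0.463, a log2 difference of -1.11, which is beyond 2-fold. The call for Met therefore depended on the probe set, while its direction did not.

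Igf1r, the receptor of insulin-like growth factors, had 5 probe sets, of which 2 were detected in all lines. The brightest had an intensity of 254 in bcat* (10d) cells and 496 in WT (9v) cells, beside 502 in line 13d and 670 in line 14d. The second had 180 in bcat* (10d) cells and 287 in WT (9v) cells, beside 232 in line 13d and 324 in line 14d. Line 10d was lowest and line 14d highest in both, while the order of lines 9v and 13d differed between them. The ratio of bcat* to WT cells was 0.512 (a log2 difference of -0.97) and 0.627. Line 10d was at least 2-fold below line 14d by the brightest probe set, with a ratio of 0.379, and 11.2% of detected genes were at least 2-fold lower in 10d than in 14d. Another probe set, under the detection level, had 14 in bcat* (10d) cells and 29 in WT (9v) cells, and the remaining ones had equal values in all lines.

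**Figure D1:**
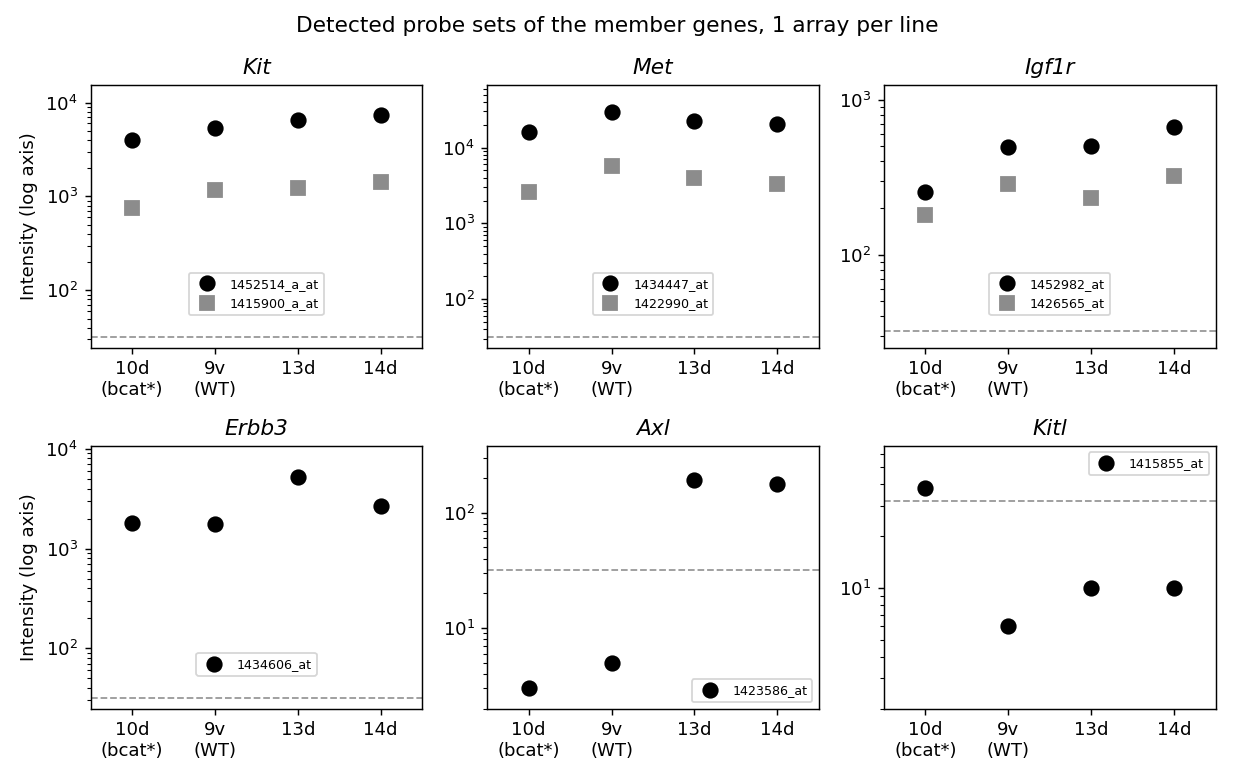
Deposited intensity (log axis) of the detected probe sets of 6 member genes in lines 10d (bcat*), 9v (WT), 13d and 14d, 1 array per line and therefore without error bars; black circles are the brightest probe set, grey squares the second, and the dashed line is the detection level of 32. Kit, Met and Igf1r were lowest in line 10d in each of 6 probe sets, Erbb3 was highest in line 13d, Axl was detected in lines 13d and 14d, and Kitl in line 10d.

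Kit, Met and Igf1r shared their lowest line. All 6 of their detected probe sets had the lowest value in line 10d, as deposited and after median centring, quantile normalization or cyclic loess. The deposited values were already normalized between arrays, so these scalings give no separate support. Cyclic loess changed no log2 difference between 10d and 9v by more than 0.05. Among the 9415 detected genes, line 10d was the lowest of the 4 lines in 24.7%, so that 3 of 6 detected members stand beside about 1 in 4 genes. The detected melanocyte markers had a median log2 difference of 0.02 between bcat* (10d) and WT (9v) cells. Mc1r, the melanocortin receptor, was the marker with the largest difference, with an intensity of 3833 in bcat* (10d) cells and 5921 in WT (9v) cells, beside 8071 in line 13d and 8343 in line 14d. Of 12 fibroblast markers 3 were detected, and Fbln1 and Col1a2 were lower in line 10d than in 9v. Postn, the remaining detected one, was nearly equal in both. It had 34 in bcat* (10d) cells and 38 in WT (9v) cells, beside 61 in line 13d and 20 in line 14d. Fbln1 had 379 in bcat* (10d) cells and 2294 in WT (9v) cells, beside 162 in line 13d and 15 in line 14d, and Col1a2 had 80 in bcat* (10d) cells and 175 in WT (9v) cells, beside 24 in line 13d and 17 in line 14d. Over the list, the summed intensity, in which bright probe sets weigh most, was 556 in bcat* (10d) cells and 2577 in WT (9v) cells, beside 311 in line 13d and 119 in line 14d. According to the study's methods, the cultures were treated with G418 to select against fibroblasts, and the part of these genes in the result was not tested.

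**Figure D2:**
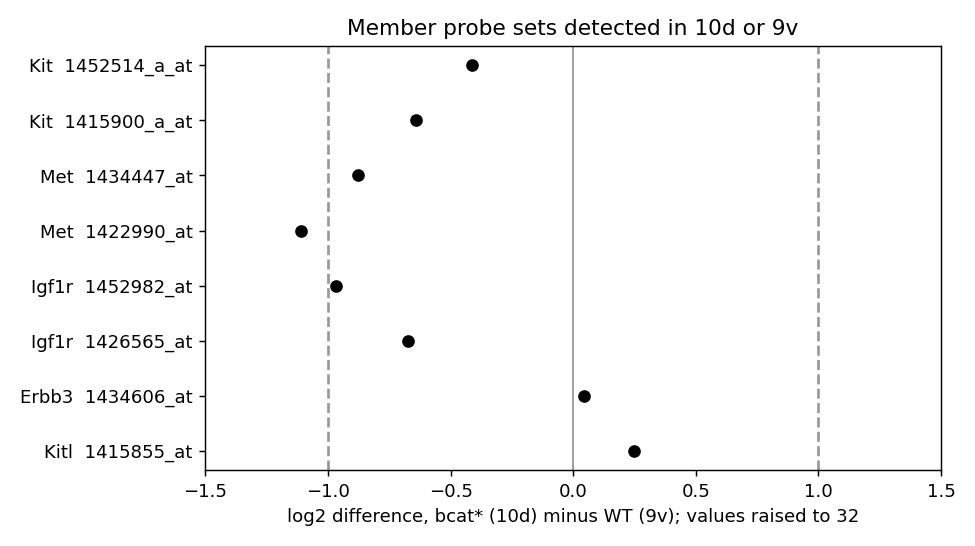
Log2 difference of bcat* (10d) minus WT (9v), after raising intensities to the detection level of 32, for the 8 probe sets of member genes detected in either line, with 1 array per line; the dashed lines mark 2-fold. All probe sets of Kit, Met and Igf1r lie left of 0, and 1 probe set of Met, at -1.11, lies beyond 2-fold.

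The stretches upstream of Kit, Met and Igf1r are shown because these members had their lowest values in the same line, and that of Axl because it had the widest range between lines. They are the 250 bases before the transcription start in RefSeq (GRCm38.p6), for Kit at chr5:75574737-75574986 on the plus strand, for Met at chr6:17463707-17463956 on the plus strand, for Igf1r at chr7:67952007-67952256 on the plus strand, and for Axl at chr7:25788734-25788983 on the minus strand. Capitals mark matches to the searched words.
Kit: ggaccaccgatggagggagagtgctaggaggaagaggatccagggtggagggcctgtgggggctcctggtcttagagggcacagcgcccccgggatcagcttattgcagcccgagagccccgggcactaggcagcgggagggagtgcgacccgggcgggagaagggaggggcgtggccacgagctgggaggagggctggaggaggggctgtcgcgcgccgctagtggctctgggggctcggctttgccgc
Met: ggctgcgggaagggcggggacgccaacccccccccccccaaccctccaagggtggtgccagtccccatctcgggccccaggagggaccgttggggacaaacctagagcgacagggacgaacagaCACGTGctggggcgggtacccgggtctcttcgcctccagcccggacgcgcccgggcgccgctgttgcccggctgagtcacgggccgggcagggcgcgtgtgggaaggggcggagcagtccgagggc
Igf1r: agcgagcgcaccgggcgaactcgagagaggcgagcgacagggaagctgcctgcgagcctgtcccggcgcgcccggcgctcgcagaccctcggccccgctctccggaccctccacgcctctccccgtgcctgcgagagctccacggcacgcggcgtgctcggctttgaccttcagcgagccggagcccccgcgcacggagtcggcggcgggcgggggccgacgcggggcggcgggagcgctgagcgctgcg
Axl: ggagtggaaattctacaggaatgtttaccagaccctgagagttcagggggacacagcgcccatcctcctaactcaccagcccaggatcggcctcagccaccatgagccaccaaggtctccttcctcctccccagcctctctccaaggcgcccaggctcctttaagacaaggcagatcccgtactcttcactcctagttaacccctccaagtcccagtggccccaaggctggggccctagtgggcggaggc
Windows of 250 bases before to 50 after each start were searched on both strands. The words that Tcf/Lef factors can bind were CTTTGAA as well as its variant CTTTGAT, and likewise the word CTTTGTA as well as its variant CTTTGTT. The E-boxes, a type of site that Mitf can bind, were CACGTG on the one hand and CATGTG on the other. RefSeq windows were matched for 7 members, Kit, Kitl, Met, Hgf, Igf1r, Pdgfra and Axl, with 9 windows in all, and not for Fgfr1, Erbb3 and Pdgfrb. The windows of Kit, starting at 75574737 and 75574741, overlap almost wholly and are not separate observations. None of the 9 windows held a Tcf/Lef word, where 16.9% of 32851 windows of the same length did. An E-box word was found in 2 of the 9, in Met, 126 bases before the start, and in 1 window of Hgf, against 20.4% of all windows. A match is a description of letters, and its absence says only that these letters are not in this window. GC content of the 250 bases was 70.8% for Kit, 74.0% for Met, 77.6% for Igf1r and 60.0% for Axl.

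Erbb3, a neuregulin receptor whose own kinase is weak and which signals as a pair with other ErbB receptors, was set apart by line 13d. Its brightest probe set had an intensity of 1818 in bcat* (10d) cells and 1762 in WT (9v) cells, beside 5211 in line 13d and 2662 in line 14d. Lines 10d and 9v were 1.03-fold apart, and line 13d was 2.96-fold above line 9v, 2.87-fold above line 10d and 1.96-fold above line 14d. At least 2-fold higher values in 13d than in 9v were found in 5.88% of detected genes, and at least 2-fold lower values in 10d than in 13d in 8.27%. The second Erbb3 probe set was under the detection level in all lines, with 23 in line 13d and 16 in each of the others. Erbb2, the usual partner, was close to the limit of detection, at 27 in bcat* (10d) cells and 54 in WT (9v) cells, beside 41 in line 13d and 56 in line 14d. The neuregulin genes Nrg1 and Nrg2, which encode ligands of this receptor pair, were under the detection level in all lines. Schwann cells also express Erbb3, and of 6 measured Schwann cell markers 3 were detected (Cdh19, Foxd3 and Pou3f1), with a summed intensity of 8684 in bcat* (10d) cells and 4994 in WT (9v) cells, beside 7705 in line 13d and 5304 in line 14d. Bright probe sets weigh most in such a sum, and that of Cdh19 had 8492 in bcat* (10d) cells and 4906 in WT (9v) cells, beside 7637 in line 13d and 5248 in line 14d. Mbp, Gfap and Egr2 were under the detection level in all lines, and the part of these markers in the result was not tested.

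Axl, a receptor of the TAM family that binds Gas6, had the widest range of the members. By its brightest probe set it reached an intensity of 194 in 13d and 178 in 14d, against 3 in line 10d and 5 in line 9v. Lines 13d and 14d thus lay close together and far above the other pair, in which the gene was under the detection level. To that level, line 13d was at least 6.06-fold and line 14d at least 5.56-fold above lines 10d and 9v. A range of at least 4-fold was found in 11.7% of detected genes, and 6.51% had a wider range than Axl. Its second probe set, whose suffix marks possible cross-hybridization, had an intensity of 6 in all lines and gave no support to the first. Genotype does not divide the lines in this way under either reading, while the labelled sex does, and sex cannot be told apart from other differences between these lines.

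Another receptor of the same family showed the same division. Mertk, which also binds Gas6 and protein S, reached 109 in 13d and 106 in 14d, against 5 in line 10d and 4 in line 9v, by its only probe set. In all, 57 of the 9415 detected genes (0.605%) had both 13d and 14d at least 2-fold above both 10d and 9v, Axl and Mertk among them. Tyro3, the remaining receptor of the family, was detected in all lines and did not follow this division, with 50 in bcat* (10d) cells and 134 in WT (9v) cells, beside 96 in line 13d and 53 in line 14d. Its ratio of bcat* to WT cells was 0.373, but its second probe set had 32 in both. Of the ligands, Pros1, the protein S gene, was detected in all lines, with 1571 in bcat* (10d) cells and 2055 in WT (9v) cells, beside 2650 in line 13d and 1974 in line 14d. Gas6 stayed under the detection level, with 9 in bcat* (10d) cells and 25 in WT (9v) cells, beside 19 in line 13d and 3 in line 14d. The genes whose pattern over the 4 lines was nearest to that of Axl, by the distance of log2 values, raised to the detection level and centred, among 1062 other named genes with a range of at least 4-fold (unnamed loci left out), were Casp4, a distance of 0.02, and Svil, a distance of 0.24. Casp4, an inflammatory caspase, had 191 in line 13d and 179 in line 14d, against 29 in line 10d and 15 in line 9v. With 4 lines, such a likeness rests on 4 points, and those of lines 10d and 9v were equal by construction before centring. In both lines Axl, Casp4 and Svil were under the detection level and were raised to it, so only lines 13d and 14d inform the likeness. Macrophages also express Axl and Mertk. Of 6 macrophage markers, Csf1r and Lyz2 were detected, in all lines, and Cd68, Adgre1, Ptprc and Cd14 in none. Their summed intensity was 386 in line 13d and 9672 in line 14d, against 280 in line 10d and 421 in line 9v. Lyz2 had 316 in line 13d and 9580 in line 14d, against 204 in line 10d and 334 in line 9v, and the part of these markers in the result was not tested.

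**Figure D3:**
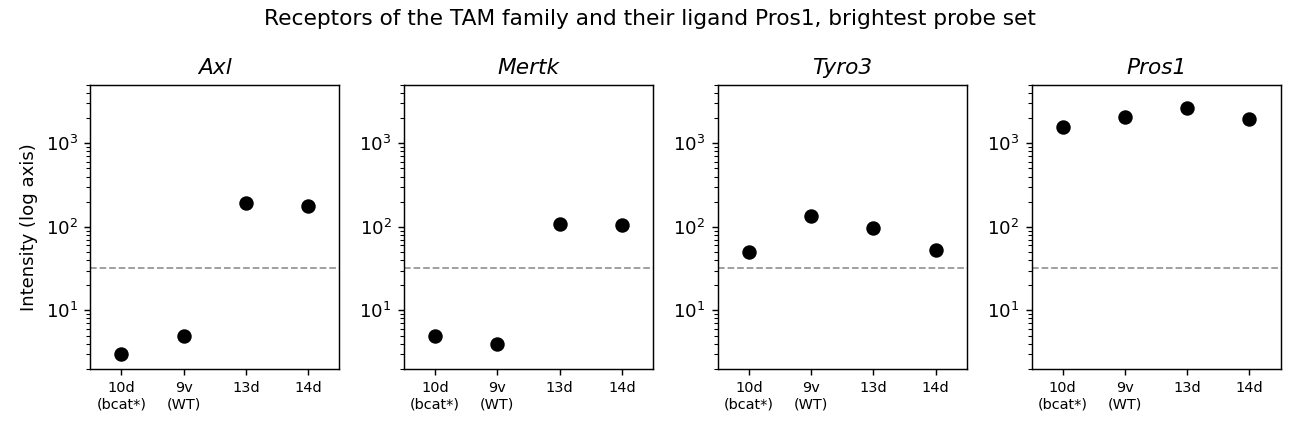
Intensity (log axis) of the brightest probe set of the TAM family receptors Axl, Mertk and Tyro3 and of Pros1, the gene of protein S, a ligand of Mertk and Tyro3, in lines 10d (bcat*), 9v (WT), 13d and 14d, 1 array per line; the dashed line is the detection level of 32. Axl and Mertk were above 100 in lines 13d and 14d and at 5 or less in lines 10d and 9v, while Tyro3 and Pros1 were detected in all lines.

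Of the ligands among the members, Kitl, which encodes stem cell factor, had 4 probe sets, and 1 was detected in 1 line. It had an intensity of 38 in bcat* (10d) cells and 6 in WT (9v) cells, beside 10 in each of lines 13d and 14d. This is at least 1.19-fold higher in 10d, counted to the detection level, and the single value above it is close to that level. The other probe sets of Kitl had values from 4 to 7, equal in all lines. Hgf had values of 5 or 6 in all 3 probe sets and lines. The receptors Kit and Met were thus measured in all lines, and their ligands, which neighbouring skin cells are known to make, were not.

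The remaining receptors gave no level. Fgfr1, a receptor of basic fibroblast growth factor, had its brightest probe set at 10 in bcat* (10d) cells and 20 in WT (9v) cells, beside 19 in line 13d and 14 in line 14d. Pdgfra and Pdgfrb, platelet-derived growth factor receptors that mark fibroblasts and pericytes, had values of 11 or less in all probe sets and lines. Of the fibroblast markers, Col1a2, Postn and Fbln1 were the detected ones. Col3a1, Dcn and Pdgfra, which define fibroblasts, were under the detection level in all lines. Of 7 pericyte and smooth muscle markers, 2 were detected (Acta2 and Des). Acta2 was detected in line 10d only, with 64 in bcat* (10d) cells and 23 in WT (9v) cells, beside 19 in line 13d and 18 in line 14d. Des lay between 32 and 36 in all lines. In the mouse genome Pdgfra and Kdr are the protein-coding genes next to Kit on either side. Both were under the detection level in all lines, Kdr with 9 in bcat* (10d) cells and 17 in WT (9v) cells, beside 12 in line 13d and 13 in line 14d, so that of this row of receptor genes only Kit gave a signal.

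**Figure D4:**
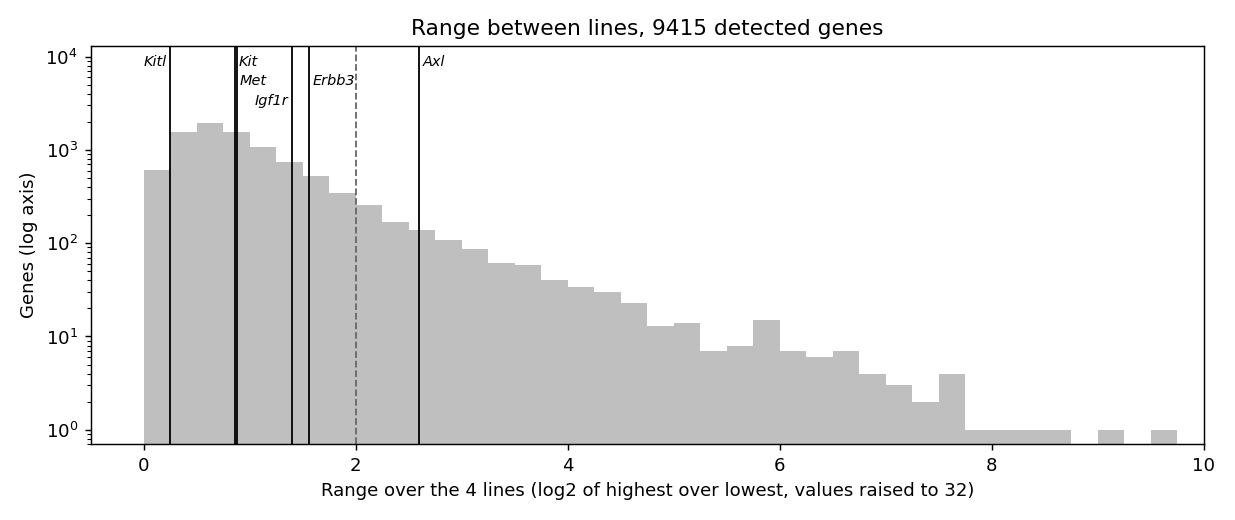
Number of genes (log axis) by their range over the 4 lines, as log2 of the highest over the lowest intensity after raising values to the detection level of 32, for the 9415 detected genes; solid lines mark the 6 detected member genes and the dashed line marks 4-fold. Axl lies past 4-fold, Erbb3 and Igf1r between 2-fold and 4-fold, and Kit, Met and Kitl below 2-fold.

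The spread of the members between lines was set beside that of all genes. Over the detected genes, 40.1% had a range of at least 2-fold, and 3 of the 6 detected members did, namely Igf1r with 2.64-fold, Erbb3 with 2.96-fold and Axl. Kit and Met had ranges of 1.82-fold and 1.84-fold, and 48.3% and 47.6% of detected genes had wider ones. Under the reading of the labels (10d and 13d against 9v and 14d) no member had groups that did not overlap, where 37.9% of detected genes did. Under the reading of the article (10d and 14d against 9v and 13d) Met alone did, with both lines of the first pair lower. Of all detected genes, 30.2% did not overlap under that reading, and 14.1% were lower. At 2-fold or more without overlap, no member was found under either reading, and the shares over all detected genes were 3.00% and 1.14%. With 2 lines against 2, an exact permutation test cannot give a two-sided p below 0.333, and none was run.

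The wider pathway was described with lists of other receptors, ligands, adaptors and brakes. In bcat* (10d) compared with WT (9v) cells, 7.62% of all detected genes were higher by 2-fold or more and 9.72% lower by as much, and these shares stand beside each count below. Of 33 other receptor tyrosine kinases, 32 were measured and 8 were detected (Csf1r, Fgfr3, Erbb2, Insr, Tyro3, Mertk, Ddr1 and Ryk). Among these, none was higher by that much and Tyro3 was lower, and their log2 differences had a median of -0.17. Insr, the insulin receptor and a close relative of Igf1r, had 497 in bcat* (10d) cells and 289 in WT (9v) cells, beside 448 in line 13d and 273 in line 14d, so that line 10d was its highest and not its lowest line. Ddr1, a collagen receptor, had a range of only 1.13-fold. Fgfr3, another fibroblast growth factor receptor, was set apart by line 14d, with 16 in bcat* (10d) cells and 37 in WT (9v) cells, beside 17 in line 13d and 404 in line 14d.

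Of 25 genes in the ligand list, 5 were detected (Fgf1, Pdgfa, Pdgfb, Pdgfc and Pros1), 1 was higher by at least 2-fold in bcat* (10d) cells and none was lower by that much. Pros1 encodes a ligand of Mertk and Tyro3, which are not members. Pdgfb only just reached the detection level, at 32 in line 14d. The higher one was Fgf1, a ligand of all fibroblast growth factor receptors, with 387 in bcat* (10d) cells and 190 in WT (9v) cells, beside 167 in line 13d and 18 in line 14d. Its second detected probe set had a ratio of 2.53 in the same direction. Igf1 and Igf2, the ligands of Igf1r, were under the detection level in all lines. Of 7 genes named as IGF binding proteins, 3 were detected and 2 were at least 2-fold higher in 10d. Igfbp7 had 311 in bcat* (10d) cells and 6 in WT (9v) cells, beside 113 in line 13d and 6 in line 14d, and was at least 9.72-fold higher in 10d than in 9v by that probe set. Its other probe sets had equal low values in all lines. Igfbp3 had 143 in bcat* (10d) cells and 9 in WT (9v) cells, beside 36 in line 13d and 146 in line 14d. Of 8 genes that activate or inhibit hepatocyte growth factor, Plat alone was detected. This plasminogen activator had 616 in bcat* (10d) cells and 1333 in WT (9v) cells, beside 3981 in line 13d and 531 in line 14d.

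**Figure D5:**
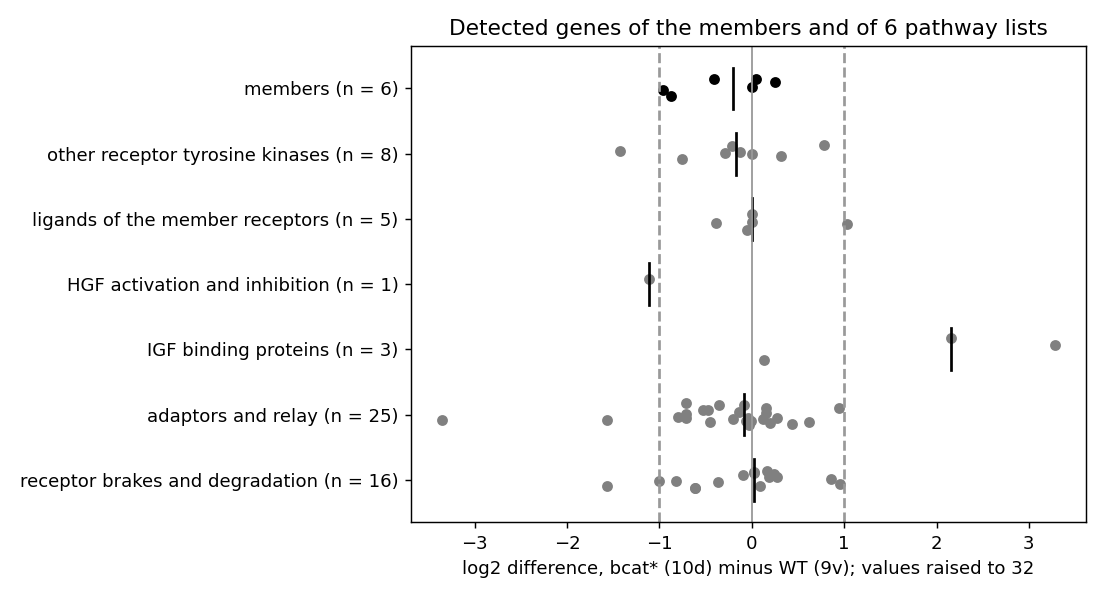
Log2 difference of bcat* (10d) minus WT (9v), after raising intensities to the detection level of 32, for the detected member genes (black) and the detected genes of 6 pathway lists (grey), with 1 array per line; each point is a gene, the short vertical bars are medians, and the dashed lines mark 2-fold. The members lie between -0.97 and 0.25, and the points farthest from 0 are Plcg2, Igfbp7 and Igfbp3.

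Of 36 adaptor and relay genes, 34 were measured and 25 were detected, and in bcat* (10d) cells none was higher and 2 were lower by at least 2-fold, their log2 differences having a median of -0.09. Both lower genes encode phospholipase C gamma enzymes, which dock on activated receptors. Plcg2 had 19 in bcat* (10d) cells and 327 in WT (9v) cells, beside 323 in line 13d and 144 in line 14d, at least 10.2-fold lower in 10d than in 9v. Plcg1 had 261 in bcat* (10d) cells and 772 in WT (9v) cells, beside 353 in line 13d and 630 in line 14d. Grb10, an adaptor that holds back signalling by Igf1r and the insulin receptor, had the widest range of this list, with 3377 in bcat* (10d) cells and 2497 in WT (9v) cells, beside 2766 in line 13d and 132 in line 14d. Line 14d, the lowest for Grb10, was the highest for Igf1r, and a link between these genes was not tested. Grb2, Gab1 and Gab2, the adaptors between receptors and Ras or PI3K, were detected in all lines with ranges of 2.54-fold, 1.59-fold and 1.88-fold. Shc1, an adaptor that recruits Grb2, had 350 in bcat* (10d) cells and 610 in WT (9v) cells, beside 662 in line 13d and 965 in line 14d.

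Of 22 genes that brake or degrade receptors, 21 were measured and 16 detected, with none higher and 2 lower by at least 2-fold in bcat* (10d) cells, and a median of 0.03 over their log2 differences. The lower genes were Socs2, an inhibitor of cytokine and growth factor signalling, with 105 in bcat* (10d) cells and 311 in WT (9v) cells, beside 78 in line 13d and 492 in line 14d, and Sh2b3, with 153 in bcat* (10d) cells and 306 in WT (9v) cells, beside 290 in line 13d and 482 in line 14d. Cbl, a ubiquitin ligase for Kit and Met, had 239 in bcat* (10d) cells and 366 in WT (9v) cells, beside 277 in line 13d and 350 in line 14d. Errfi1, an inhibitor of ErbB receptors, had 548 in bcat* (10d) cells and 302 in WT (9v) cells, beside 546 in line 13d and 112 in line 14d. The counts of these lists lay between 0 and 2 in each direction, and nothing particular to a list is read from them.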

How the data were processed

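Total RNA from 4 melanocyte lines was hybridized to Affymetrix arrays, with 1 array for each line. The intensities deposited by the authors were made with GCRMA, according to the submitters' processing notes. This method corrects background by probe sequence and normalizes between arrays, and no version is given in the sources used here. All values were whole numbers, and their range shows a linear scale that no source states, so log2 was taken. Ratios of dim probe sets are coarse because of the rounding, and precision is limited by the 4 arrays.

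The platform's annotation listed 1 gene for 34945 of 45037 probe sets, several for 932 and none for 9160. Each gene was read from its brightest probe set by mean log2 over the arrays. Folds used values raised to the detection level of 32. The members and lists were chosen with earlier results of these data known. Named were all members, up to 4 detected genes of each list by range and up to 2 by difference, the 2 genes nearest to a member with a range of at least 4-fold, and defining markers; some so chosen are not given, and Igf1, Igf2, Nrg1, Nrg2, Gas6, Erbb2, Kdr, Ddr1, Xist, Cbl, Grb2, Gab1, Gab2 and Shc1 were added by their role, after values were seen. The counting was tested on simulated data. Alternatives were other probe set rules, scalings, detection levels and thresholds. Python 3.11.15, NumPy 2.4.6, pandas 2.3.3, matplotlib 3.10.9, R 4.3.3 and limma 3.58.1 were used.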

Additional observations from a re-analysis of the deposited data

How the results depend on the processing

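No paired analysis was possible because each line was measured on 1 array, and none could be left out. The count of members at least 2-fold apart between bcat* (10d) and WT (9v), which was 0, became 1 at a detection level of 16 (Kitl), 2 at a threshold of 1.5-fold (Met and Igf1r) and 1 when any detected probe set was taken (Met), an alternative chosen after seeing the data. The count of members with a range of at least 4-fold, 1 as reported (Axl), became 0 with probe sets averaged and 0 at a detection level of 64, which limits the fold by construction. The other 40 of 45 counts under alternatives moved by no more than 1.5 times or stayed at 0. Of 39 log2 differences of single members under alternatives, 37 moved by under 1.5-fold and 0 changed direction. The exceptions were Kitl, at 1.25 with a detection level of 16, and Igf1r, at -0.38 with probe sets averaged, dim ones included. Not all of these differences could move. Axl stayed at 0 because both lines were raised to the detection level. Detection levels of 16 and 64 could not change Kit, Met, Igf1r and Erbb3, whose brightest probe sets lay above both in all lines. Kit gave no value without probe sets with the suffixes _s_at, _x_at and _a_at, since both of its probe sets carry one. Median centring moved the log2 differences of Kit, Met, Igf1r and Erbb3 between 10d and 9v by 0.19, since the median intensity was 7 in line 10d and 8 in the others, and Kit was then at -0.22, Met at -0.69 and Igf1r at -0.77. These medians are whole numbers under the detection level, so the shift can reflect rounding of dim values. Kit was at -0.39 with quantile normalization and at -0.43 with cyclic loess. Signals near the detection level limit what Kitl, Fgfr1, Erbb2 and the platelet-derived growth factor receptors can show.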

Other observations

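Some values belong to no comparison above. Ednrb, the endothelin receptor gene of melanocytes, was under the detection level by its brightest probe set, at 29 in all lines, while another of its probe sets had 34 in line 14d and 7 in each of the others. Csf1r, a receptor tyrosine kinase known from macrophages, was detected in all lines close to the detection level, with 40 in line 10d, 49 in line 9v, 34 in line 13d and 51 in line 14d. Cdh1, the E-cadherin gene of keratinocytes and melanocytes, had 272 in line 13d and between 12 and 16 in the others, so that it was detected only in line 13d. Of 9 measured keratinocyte markers, Krt10 was the other detected one, while Krt5 and Krt14 were under the detection level.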
